A study of Homo sapiens with 8 samples.

Results

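The NRF2 antioxidant response was followed through 10 genes, taken from the 38032 gene identifiers counted in each library. They comprised the transcription factor gene NFE2L2 and its inhibitor KEAP1, the glutathione synthesis genes GCLC and GCLM, the thioredoxin system genes TXN, TXNRD1 and SRXN1, the quinone and heme enzymes NQO1 and HMOX1, and OSGIN1. The rule names them as known members of this pathway and uses no measured value, but it was set with earlier results of these data known. They were found by matching identifiers to GENCODE symbols. All 10 were among the 13943 genes that passed the filter on low counts, with 541 to 10186 counts in a library.

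HepG2 is a line of human hepatocellular carcinoma cells, labelled wild type. It was grown for 8 days either on flat culture-ware (2D-primed, 4 libraries) or on Alvetex, a porous and inert polystyrene membrane (3D-primed, 4 libraries), in the same medium with non-essential amino acids, glutamine and foetal bovine serum, and was released with trypsin in both groups. Both groups come from a single cell line, and the labels do not say whether the replicates of a group were separate cultures, so that p-values measure the spread between these libraries, which may be technical. By the methods of the study the groups also differed in seeding density and in how the medium was held, which cannot be told apart from the surface. In bulk RNA, fewer cells of a kind and less RNA per cell cannot be told apart either.

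The transcription factor NRF2, the product of NFE2L2, is the main switch of the cellular defence against oxidants and electrophiles. KEAP1 holds NRF2 and passes it to a ubiquitin ligase for degradation, and reactive compounds modify cysteines of KEAP1 so that NRF2 escapes, enters the nucleus, pairs with a small MAF protein and binds antioxidant response elements near its target genes. The liver is rich in this system, since hepatocytes meet many reactive drug metabolites. Because NRF2 is governed largely by protein stability, the RNA levels given here do not measure the amount or location of the protein.

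The libraries held 21599630 to 27844077 counts with overlapping groups (two-sided exact permutation test, p = 0.26). Hepatocyte markers were abundant, with a summed level of 69219 to 75297 CPM (counts scaled to the TMM-adjusted total of the library) in 2D-primed and 97272 to 109202 CPM in the 3D-primed libraries, summed over 9 genes. ALB led this sum. APOB (11244 to 14043 CPM in 2D-primed, 9855 to 11793 in 3D-primed libraries) and SERPINA1 (10211 to 11154 and 9383 to 10323 CPM) did not rise. Both were named after their values were seen, and the other markers lay higher in every 3D-primed library. Of the other cell types, the 8 fibroblast and stellate markers summed to 40.5 to 48.7 CPM over all libraries, led by ACTA2, and the 5 endothelial markers to 4.16 to 7.76 CPM. The 6 macrophage and leukocyte markers summed to 2194 to 3027 CPM, almost all of it from LYZ, while CD163 was at 0 in every library. Genes of the mitochondrial DNA took 1.40 to 1.81% of counts in 2D-primed and 2.47 to 2.98% in 3D-primed libraries (exact permutation test, two-sided, p = 0.029). The part of these differences in the results was not tested.

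Between 2D-primed and 3D-primed cells the antioxidant genes moved in both directions. GCLM, SRXN1 and NQO1 were higher in 3D-primed cells, by 1.28-fold to 1.44-fold. NFE2L2, KEAP1, GCLC, TXNRD1, HMOX1 and OSGIN1 were lower, from 1.10-fold for TXNRD1 to 2.17-fold for OSGIN1, and TXN did not pass the test. In edgeR's quasi-likelihood test, 9 of the 10 genes were thus called at a Benjamini-Hochberg adjusted p below 0.05, where 63.9% of all genes tested were called, 32.4% higher and 31.6% lower in 3D-primed cells. The 4 libraries of one group lay above the 4 of the other for 8 of the 10 genes, against 59.8% of all genes tested. These shares are over genes of all levels, whereas the 10 genes had a median level percentile of 87.6 (lowest 59.2). Where 10 counts were required in all 8 libraries, 68.5% of genes tested were called. The part of level in these counts was not tested. The median absolute log2 fold change of the 10 genes was 0.35, beside 0.34 over all genes tested, and their median log2 fold change was -0.15, beside 0.01. Their absolute changes were thus close in median to those of all genes tested. OSGIN1 alone was called with a change of at least 2-fold, as 11.9% of all genes tested were. DESeq2 called the same 9 genes in the same directions, where it called 60.3% of all genes tested.

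**Figure D1:**
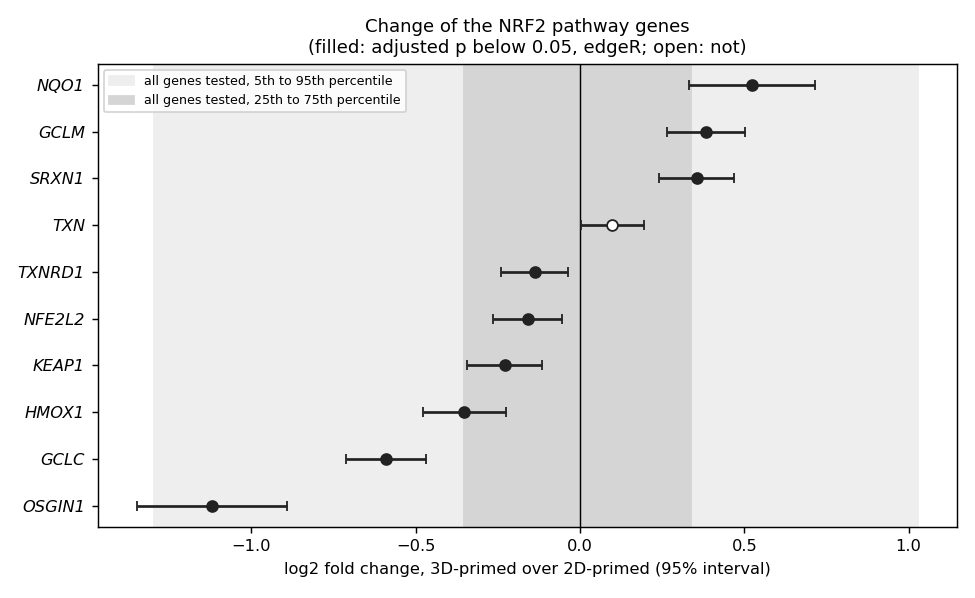
Log2 fold change of each of the 10 genes, 3D-primed over 2D-primed, with its 95% interval, filled where edgeR's adjusted p was below 0.05, against the spread of all genes tested in grey. OSGIN1 lies farthest from 0, at -1.12, GCLC at -0.59 and GCLM at 0.38 lie on opposite sides, and TXN, at 0.10, is the open symbol.

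The DNA upstream of these genes was read for the antioxidant response element, whose core is TGACNNNGC, for TGACTCAGC, the form of it that contains the AP-1 site, and for TGACTCA, the AP-1 site itself. Of the 10 genes, 9 had a promoter window in RefSeq (all but HMOX1). In the window from 250 bases before to 50 after a start, TGACNNNGC was found for 3 of the 9 genes (GCLM, TXNRD1 and the window of a downstream start of KEAP1), against 13.3% of the windows of all genes. NFE2L2, TXNRD1 and KEAP1 have more than a single window, so a count of genes and a share of windows are unlike measures. TGACTCA was found for OSGIN1 (4.95% of all windows) and TGACTCAGC for none (0.561% of all windows). In the 1000 bases upstream of the canonical start of the same 9 genes, TGACNNNGC was found for 6, TGACTCA for 3 and TGACTCAGC for NQO1 alone, against 32.6%, 12.1% and 1.31% of the windows of 20033 protein-coding genes. NFE2L2 and KEAP1 held none of these letters there. A match describes the letters and is not evidence of binding. The matches are given with 10 bases to each side, to set genes of either direction side by side, each on the strand that reads the motif, in capitals, with its position in GRCh38.
NQO1, chr16:69726997-69727025, minus strand, at -455 from the start: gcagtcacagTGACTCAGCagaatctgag
GCLM, chr1:93909446-93909474, plus strand, at -34 from the start: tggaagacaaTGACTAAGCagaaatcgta
SRXN1, chr20:653456-653482, plus strand, at -272 from the start: ccgggcgggcTGACTCAgggtgagttt
TXN, chr9:110257070-110257098, plus strand, at -581 from the start: tgctccagctTGACACAGCggtttagtgc
TXNRD1, chr12:104215670-104215698, plus strand, at -99 from the start: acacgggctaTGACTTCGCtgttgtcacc
GCLC, chr6:53545953-53545981, plus strand, at -870 from the start: aaatatgtgtTGACAGAGCaatgacctgt
OSGIN1, chr16:83952673-83952701, plus strand, at -557 from the start: agacaatctgTGACTTGGCcccagttttc
OSGIN1, chr16:83953133-83953159, plus strand, at -97 from the start: gggcccctgcTGACTCAcgcttatgaa
The core TGACNNNGC stood upstream of genes that were higher in 3D-primed cells (NQO1, GCLM) and of genes that were lower (GCLC, TXNRD1, OSGIN1). The NQO1 match lies in an exon of the divergent transcript NQO1-DT. The stretch printed for GCLM overlaps an exon of GCLM itself.

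The regulators were examined first. NFE2L2 (ENSG00000116044, chr2:177218667-177392756) was counted at 229.6, 242, 232 and 232 CPM in 2D-primed replicates 1 to 4 and at 227, 197, 203 and 209.8 CPM in 3D-primed replicates 1 to 4. The groups did not overlap, but 3D-primed replicate 1 came close to the lowest 2D-primed library. The log2 fold change was -0.16 ± 0.0472 (SE, with an edgeR adjusted p of 0.013), with a higher level in 2D-primed cells. With upper-quartile scaling it was -0.11 and missed the threshold (adjusted p = 0.052 in edgeR). KEAP1 (ENSG00000079999, chr19:10486125-10503558) had 84.3, 91.6, 95.4 and 88.4 CPM in the 2D-primed and 80.2, 76.9, 71.2 and 78.5 CPM in the 3D-primed libraries. Its groups were apart as well, with a log2 fold change of -0.23 ± 0.0510 (SE, with an edgeR adjusted p of 0.0026). The factor and its inhibitor were thus both slightly lower in 3D-primed cells. NFE2L2 shares its span with HNRNPA3 and AGPS on the opposite strand, and the counts were assigned to transcripts, not to the genome.

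Within a library, the ratio of KEAP1 to NFE2L2 was 0.385 ± 0.0192 for 2D-primed and 0.367 ± 0.0186 for 3D-primed libraries (SD, n = 4), and the groups overlapped (two-sided exact permutation test, p = 0.23). A ratio taken within a library does not depend on how libraries are scaled.

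Glutathione is the main soluble thiol of the cell, and its first and limiting step is made by glutamate-cysteine ligase, a pair of a catalytic subunit (GCLC) and a modifier subunit (GCLM) that raises its efficiency. The subunits moved in opposite directions. GCLC (ENSG00000001084, chr6:53497341-53616970) was counted at 168, 162, 171 and 151 CPM across the 2D-primed and 104, 101, 116 and 112 CPM across the 3D-primed libraries. Every 2D-primed library lay above every 3D-primed one, and the log2 fold change was -0.59 ± 0.0546 (SE, with an edgeR adjusted p of 6.1e-06), or 1.51-fold more in 2D-primed cells. GCLM (ENSG00000023909, chr1:93885199-93909456) was the least abundant of the 10 genes, at 25.8, 23.9, 25.9 and 22.8 CPM across the 2D-primed and 32.5, 30.5, 32.1 and 33.2 CPM across the 3D-primed libraries. It was 1.30-fold higher in 3D-primed cells, again without overlap (edgeR log2 fold change 0.38 ± 0.0530 SE at an adjusted p of 1.1e-04).

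The ratio of GCLM to GCLC therefore changed more than either gene. In 2D-primed replicates 1 to 4 it was 0.154, 0.148, 0.151 and 0.151, and in 3D-primed replicates 1 to 4 it was 0.312, 0.301, 0.277 and 0.297. The 2D-primed libraries were nearly equal to each other and the 3D-primed libraries stood well above them, 0.97 higher on the log2 scale. The two-sided exact permutation test gave p = 0.029, the smallest value that 4 libraries against 4 allow, and 0.048 after Benjamini-Hochberg adjustment over the 5 ratios examined. Since GCLM was higher and GCLC lower in every 3D-primed library than in any 2D-primed one, this ratio had to separate. Its p therefore adds no support to the changes of the single genes. These are ratios of counts, in which the longer transcript of GCLM weighs more. Per kilobase of canonical transcript, GCLM stood at 5.04 ± 0.307 CPM and GCLC at 43.1 ± 2.31 CPM in 2D-primed libraries, and at 6.57 ± 0.233 and 28.6 ± 1.75 CPM in 3D-primed libraries (SD, n = 4).

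**Figure D2:**
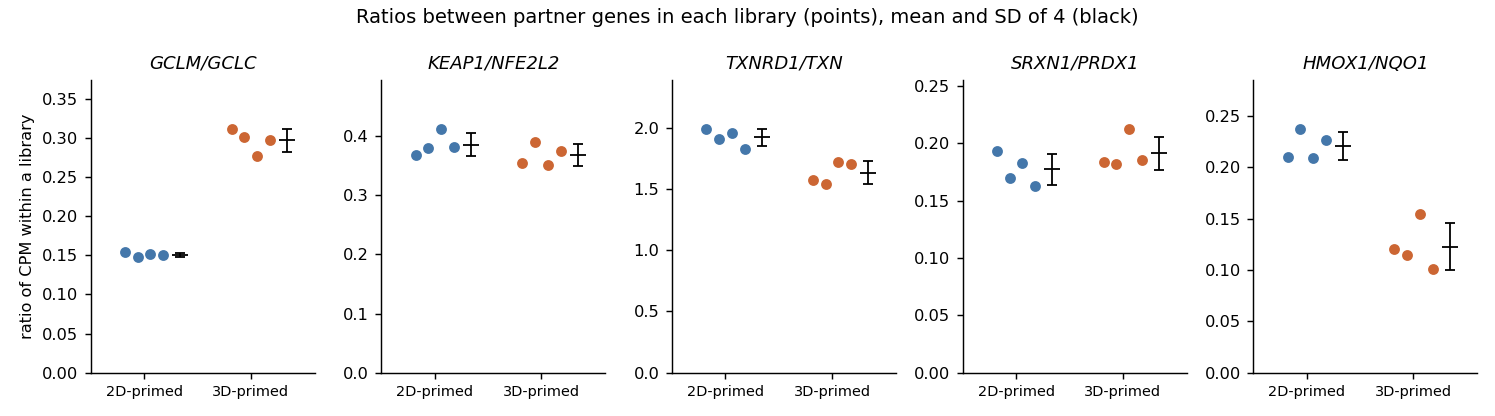
Ratio of the CPM of partner genes within each library, by group, with the mean and SD of 4 libraries in black and each axis starting at 0. The GCLM/GCLC ratio moves from 0.148 to 0.154 in 2D-primed libraries up to 0.277 to 0.312 in 3D-primed libraries, whereas the groups overlap for KEAP1/NFE2L2 and SRXN1/PRDX1.

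In the thioredoxin system, thioredoxin (TXN) reduces oxidised proteins, thioredoxin reductase (TXNRD1) recharges it with NADPH, and sulfiredoxin (SRXN1) repairs peroxiredoxins that were overoxidised by peroxide. TXN (ENSG00000136810, chr9:110243810-110256507) had 114, 114, 117 and 111 CPM in 2D-primed and 126, 127, 113 and 122 CPM in 3D-primed libraries. The groups overlapped through 3D-primed replicate 3, and the log2 fold change of 0.10 missed the threshold (95% interval 0.0021 to 0.19 before adjustment, adjusted p = 0.069 in edgeR). Without that library it was 0.13 and passed (adjusted p = 0.012), and it also passed with total counts (0.13) and with upper-quartile scaling (0.15). TXNRD1 (ENSG00000198431, chr12:104215779-104350307) had 226, 218, 229 and 203 CPM in 2D-primed and 197, 196, 195 and 207 CPM in 3D-primed libraries. Here 3D-primed replicate 4 exceeded 2D-primed replicate 4, and the log2 fold change was -0.14 ± 0.0456 (SE, with an edgeR adjusted p of 0.022). This call was lost without 2D-primed replicate 1 (-0.12, adjusted p = 0.056) or replicate 3 (-0.12, adjusted p = 0.058), with the replicate number as a block (-0.14, adjusted p = 0.057), and with total-count or upper-quartile scaling (-0.11 and -0.09).

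SRXN1 (ENSG00000271303, chr20:646615-653200) rose. It was counted at 86.1, 77.0, 83.0 and 73.9 CPM across the 2D-primed and 105, 98.3, 103 and 103 CPM across the 3D-primed libraries, which did not overlap. The log2 fold change was 0.35 ± 0.0512 (SE, with an edgeR adjusted p of 1.5e-04), or 1.28-fold more in 3D-primed cells. A further gene without a symbol, ENSG00000270299, lies in the same span on the same strand, and the counting could have split reads between them. PRDX1, a peroxiredoxin that SRXN1 repairs, rose from 452 ± 4.04 CPM to 537 ± 37.0 CPM (SD, n = 4; edgeR log2 fold change 0.25 at an adjusted p of 0.0013). The ratio of SRXN1 to PRDX1 went from 0.177 ± 0.0136 to 0.191 ± 0.0145, and the groups overlapped (two-sided exact permutation test, p = 0.23). The ratio of TXNRD1 to its substrate TXN, free of scaling, fell from 1.92 ± 0.0718 to 1.63 ± 0.0900 without overlap (two-sided exact permutation test, p = 0.029, adjusted p = 0.048 over the 5 ratios). The unadjusted p is the smallest that 4 libraries against 4 allow. Its adjusted p also rests on GCLM/GCLC and HMOX1/NQO1, which had the same p and had to separate. It is therefore not a measure of the TXNRD1/TXN ratio alone.

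NQO1, which reduces quinones in a single step that avoids reactive intermediates, is a classic readout of NRF2. NQO1 (ENSG00000181019, chr16:69706996-69726668) was counted at 245, 249, 243 and 237 CPM across the 2D-primed and 356, 352, 287 and 404 CPM across the 3D-primed libraries. No library of one group reached the other, but the 3D-primed libraries spread over a wider range, with replicate 3 low and replicate 4 high. The log2 fold change was 0.52 ± 0.0856 (SE, with an edgeR adjusted p of 3.5e-04), or 1.44-fold (95% interval 1.26 to 1.64). It stayed between 0.45 and 0.60 when any single library was dropped. HMOX1 (ENSG00000100292, chr22:35380361-35394214), whose product heme oxygenase-1 opens heme into biliverdin, iron and carbon monoxide, and which BACH1 represses, went the other way. It had 51.5, 59.2, 50.7 and 53.7 CPM in 2D-primed and 43.0, 40.2, 44.4 and 40.7 CPM in 3D-primed libraries, which were apart (edgeR log2 fold change -0.35 ± 0.0564 SE at an adjusted p of 3.0e-04). The ratio of HMOX1 to NQO1 went from 0.221 ± 0.0138 in 2D-primed to 0.123 ± 0.0231 in 3D-primed libraries (exact permutation test, two-sided, p = 0.029, adjusted p = 0.048 over the 5 ratios). Both are known NRF2 targets. As HMOX1 was lower and NQO1 higher in every 3D-primed library than in any 2D-primed one, this ratio could not overlap. Its p therefore adds no support to the changes of the single genes.

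OSGIN1 encodes an oxidative stress-induced regulator of growth and cell death. OSGIN1 (ENSG00000140961, chr16:83931311-83966332) was counted at 77.7, 95.7, 114 and 96.8 CPM across the 2D-primed and 43.5, 40.2, 46.7 and 46.5 CPM across the 3D-primed libraries. The 2D-primed libraries varied more, with replicate 1 low and replicate 3 high, yet all lay above the 3D-primed ones. It had the largest change of the 10 genes, a log2 fold change of -1.12 ± 0.103 (SE, with an edgeR adjusted p of 5.9e-06), which stayed between -1.21 and -1.03 when any single library was dropped. Its absolute change exceeded that of 89.3% of all genes tested. The span of OSGIN1 overlaps that of MLYCD on the same strand.

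**Figure D3:**
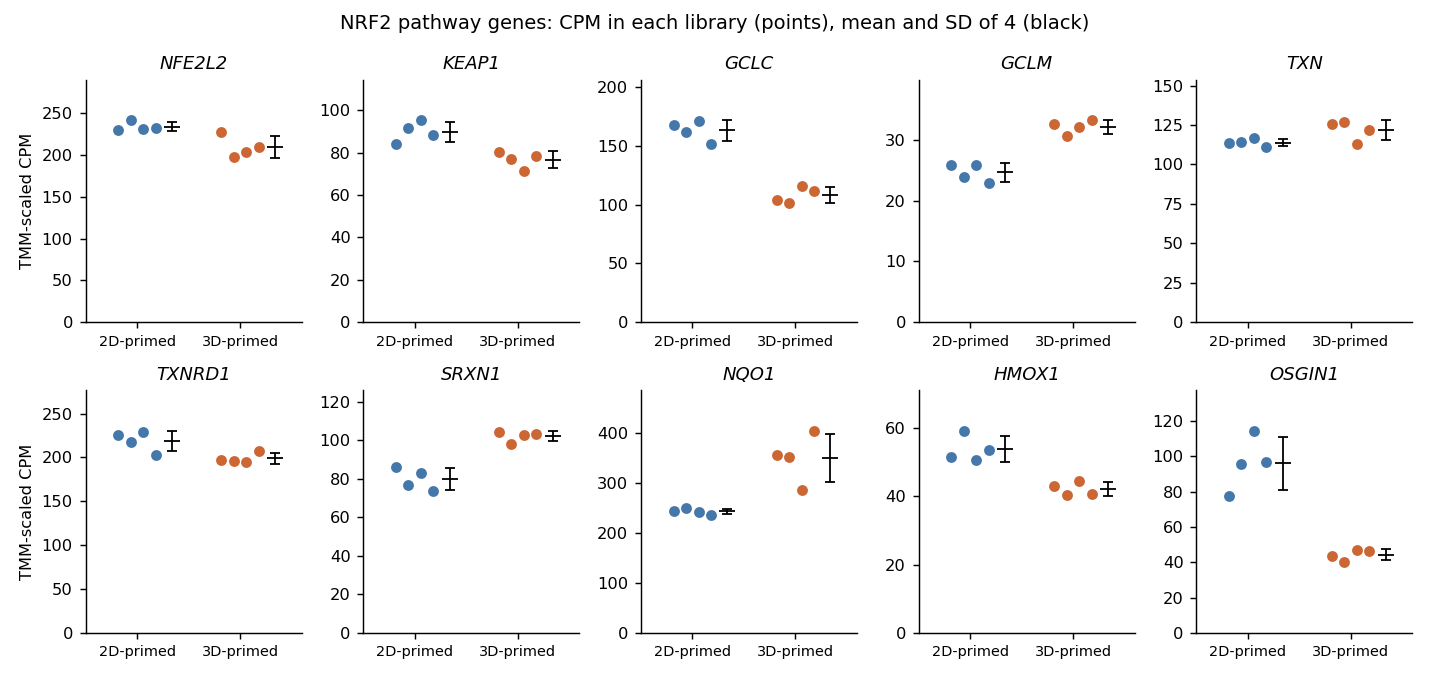
TMM-scaled CPM of the 10 genes in each library, by group, with the mean and SD of 4 libraries in black and each axis starting at 0. GCLM, SRXN1 and NQO1 lie higher in 3D-primed libraries, the groups overlap in TXN and TXNRD1, and the other 5 genes lie lower in 3D-primed libraries.

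Levels of different genes were compared per kilobase of canonical transcript. TXN was highest in both groups, at 154 ± 3.08 CPM per kilobase for 2D-primed and 165 ± 8.42 for 3D-primed libraries (SD, n = 4), and GCLM was lowest. In 2D-primed libraries NQO1 and NFE2L2 followed TXN, at 96.5 ± 2.02 and 95.6 ± 2.19 CPM per kilobase, with overlapping libraries. In 3D-primed libraries they were apart, at 139 ± 19.2 for NQO1 and 85.6 ± 5.26 for NFE2L2, while the libraries of TXN and NQO1 overlapped. TXNRD1 came next in both groups, at 56.7 ± 3.01 and 51.5 ± 1.52 CPM per kilobase, and in 2D-primed libraries it overlapped with OSGIN1, at 50.02 ± 7.82, and OSGIN1 with GCLC. OSGIN1 stood at rank 5 among 2D-primed and at rank 9 among 3D-primed levels, at 23.01 ± 1.59 in the latter, and SRXN1 at rank 9 and rank 5, from 31.6 ± 2.20 to 40.5 ± 1.07. KEAP1, HMOX1 and SRXN1 in 2D-primed libraries, and KEAP1, GCLC and HMOX1 in 3D-primed libraries, each overlapped with their neighbours in the order.

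Genes that act beside NRF2 were examined through 8 further lists of 92 genes in all, of which 91 were matched and 85 tested. Of these, 43 were higher and 24 lower in 3D-primed cells and 18 were not called in edgeR, where 63.9% of all genes tested were called. Their median log2 fold change was 0.16, beside 0.01 over all genes tested.

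The partners of NRF2 and the genes of its turnover numbered 13 tested genes with a median of -0.26 on the log2 scale, 8 of them lower, 4 higher and 1 not called. MAFK, which encodes a small MAF protein of the kind that NRF2 pairs with, was counted at 74.2, 94.7, 93.8 and 100.05 CPM across the 2D-primed and 27.0, 29.4, 39.3 and 27.5 CPM across the 3D-primed libraries. It was 2.94-fold higher in 2D-primed cells (edgeR log2 fold change -1.56 ± 0.128 SE at an adjusted p of 2.7e-06). The other small MAF genes, chosen after their values were seen, were lower as well, MAFF by 1.09 and MAFG by 0.48 on the log2 scale (adjusted p = 6.3e-06 and 1.4e-05 in edgeR). NFE2L1 and NFE2L3 encode factors of the same family as NRF2. NFE2L1 went from 602 ± 32.0 to 313 ± 23.3 CPM (edgeR log2 fold change -0.94 at an adjusted p of 4.9e-07) and NFE2L3 from 25.6 ± 1.05 to 12.8 ± 0.945 CPM (a 2D-primed level 2.003 times the 3D-primed one, adjusted p = 4.6e-07; SD, n = 4). BACH1, which competes with NRF2 for the same elements, was lower by 0.26 and SQSTM1, which draws KEAP1 into autophagy, by 0.48 on the log2 scale (adjusted p = 0.0019 and 6.4e-05 in edgeR), and both were named after their values were seen. The genes higher in 3D-primed cells were CUL3 and RBX1, of the ligase that KEAP1 serves, and BTRC and SYVN1, of other ligases that act on NRF2, at log2 fold changes of 0.33, 0.19, 0.12 and 0.29 (adjusted p = 2.5e-05, 0.027, 0.020 and 1.3e-04 in edgeR), and all were named after their values were seen. The groups of RBX1 overlapped through 3D-primed replicate 3. With DESeq2, 3 genes of the list were called higher in place of 4. The count was also 3 without 2D-primed replicate 1, 2 or 4 and without 3D-primed replicate 1 or 4. Without 3D-primed replicate 2 it was 2.

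**Figure D4:**
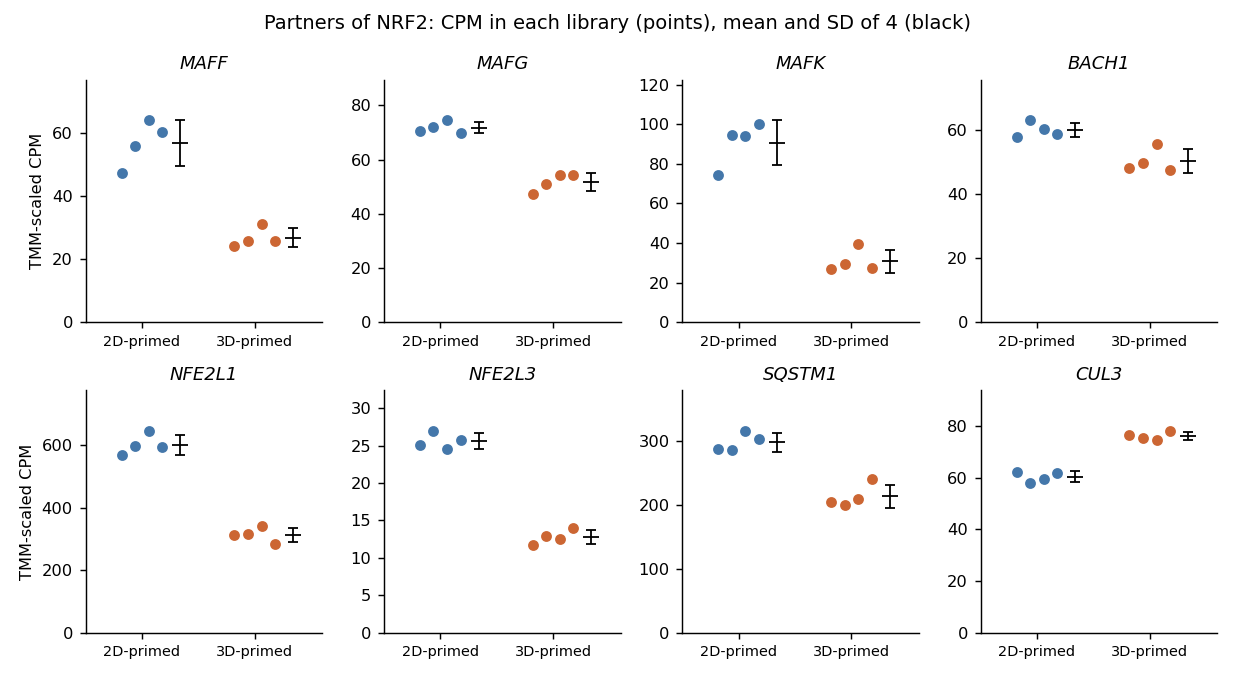
TMM-scaled CPM of 8 genes that act with or on NRF2, in each library, by group, with the mean and SD of 4 libraries in black and each axis starting at 0. MAFK falls from a mean of 90.7 to 30.8 CPM and NFE2L1 from 602 to 313 CPM, while CUL3 lies higher in 3D-primed libraries.

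Genes of glutathione supply and use had 7 higher, 5 lower and 2 not called of 14 tested and a median log2 fold change of 0.16. SLC7A11, the cystine carrier that feeds glutathione synthesis and is also a target of ATF4, was counted at 17.0, 14.4, 18.1 and 15.7 CPM across the 2D-primed and 73.4, 91.3, 95.6 and 88.7 CPM across the 3D-primed libraries. This was 5.35-fold more in 3D-primed cells (edgeR log2 fold change 2.42 ± 0.0945 SE at an adjusted p of 3.5e-08). Its partner chain SLC3A2 rose by 0.42 on the log2 scale (adjusted p = 2.4e-06). GPX4, which removes lipid peroxides with glutathione, went the other way, from 345 ± 17.0 to 214 ± 18.3 CPM (edgeR log2 fold change -0.69 at an adjusted p of 5.2e-06; SD, n = 4). The other lower genes were GPX1, GPX2, GPX3 and the glutaredoxin gene GLRX, whose products use glutathione as a reductant, and all were named after their values were seen. The other genes that were higher comprised GSS and GSR, which complete and recycle glutathione, GGCT, and the glutathione-degrading CHAC1 and CHAC2, likewise named after their values were seen, and CHAC1 stayed below 1 CPM.

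In the thioredoxin and peroxiredoxin list, 10 of 14 tested genes were higher, 1 was lower and 3 were not called, with a median log2 fold change of 0.39. The lower gene was TXNIP, which binds and inhibits thioredoxin, at 32.7, 18.4, 21.2 and 20.04 CPM across the 2D-primed and 6.90, 5.84, 6.63 and 5.44 CPM across the 3D-primed libraries (edgeR log2 fold change -1.89 ± 0.178 SE at an adjusted p of 6.7e-06). SESN2, a stress-induced sestrin, went from 24.9 ± 1.05 to 49.99 ± 2.35 CPM (2.007-fold, adjusted p = 9.5e-08 in edgeR), and MSRB1, which repairs oxidised methionine, rose by 0.70 (adjusted p = 1.3e-05; SD, n = 4). Besides PRDX1, the peroxiredoxin genes PRDX2, PRDX3, PRDX5 and PRDX6 were called higher and PRDX4 was not called (edgeR log2 fold change 0.05 at an adjusted p of 0.45), all named after their values were seen. MSRA, likewise, had the highest log2 fold change of the list, 2.25, with means of 0.212 and 1.03 CPM (edgeR adjusted p = 0.0047). Its groups overlapped at these low levels, as 2D-primed replicate 4 (0.506 CPM) exceeded 3D-primed replicate 2 (0.487 CPM).

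The quinone, carbonyl and heme list had 8 higher, 3 lower and 6 not called of 17 tested genes, with a median log2 fold change of 0.14. The aldo-keto reductase gene AKR1B10 went from 33.3 ± 1.79 to 67.0 ± 7.98 CPM (edgeR log2 fold change 1.01 at an adjusted p of 2.3e-06), the quinone reductase gene NQO2 from 11.1 ± 0.631 to 18.7 ± 1.93 CPM (0.76, adjusted p = 2.0e-05), and FECH, which inserts iron into heme, from 10.9 ± 1.09 to 19.2 ± 1.57 CPM (0.81, adjusted p = 1.6e-05; SD, n = 4). AKR1C1, AKR1C2 and AKR1C3, often counted among the strongest NRF2 targets and chosen after their values were seen, were not called, with log2 fold changes of 0.11, 0.09 and 0.06 (adjusted p = 0.11, 0.18 and 0.29 in edgeR). These paralogs are nearly identical, and the counting could have split their reads. The NADPH-supplying genes had 3 higher, 1 lower and 1 not called of 5 tested. IDH1 rose from 200.4 ± 25.1 to 675 ± 51.0 CPM (edgeR log2 fold change 1.75 at an adjusted p of 1.6e-07), PGD by 0.83 (adjusted p = 1.2e-07) and TKT by 0.30 on the log2 scale (adjusted p = 1.1e-04; SD, n = 4).

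Among glutathione transferases and efflux pumps, 4 were higher, 5 lower and 4 not called of 13 tested genes, with a median log2 fold change of -0.08. GSTA4, which conjugates lipid aldehydes, went from 10.1 ± 1.28 to 22.2 ± 2.02 CPM (edgeR log2 fold change 1.14 at an adjusted p of 3.5e-06). The export pump gene ABCC1 went the other way, from 86.0 ± 3.07 to 35.4 ± 3.38 CPM (edgeR log2 fold change -1.28 at an adjusted p of 1.2e-07), as did UGDH, which makes glucuronic acid for conjugation, at -0.35 (adjusted p = 9.1e-06; SD, n = 4). Of 5 other reported NRF2 targets, 4 were higher and 1 was lower, with a median log2 fold change of 0.43. The lower one was OSGIN2, the paralog of OSGIN1, which went from 13.5 ± 0.523 to 8.85 ± 0.742 CPM (edgeR log2 fold change -0.61 at an adjusted p of 3.4e-05). ABHD4 and TRIM16L rose by 0.27 and 0.61 on the log2 scale (adjusted p = 1.0e-04 and 9.4e-04), the latter at under 4 CPM. Of the 4 tested genes that remove superoxide and peroxide, 3 were higher and 1 was not called. The count of higher genes was 2 with median-of-ratios scaling, with limma-voom and without any single library other than 3D-primed replicate 3, and 4 with upper-quartile scaling. SOD1 rose by 0.34 and its copper chaperone CCS by 0.39 on the log2 scale (adjusted p = 9.4e-05 and 4.0e-04 in edgeR), and CAT, which encodes catalase, by 0.16, close to the threshold (adjusted p = 0.048).

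**Figure D5:**
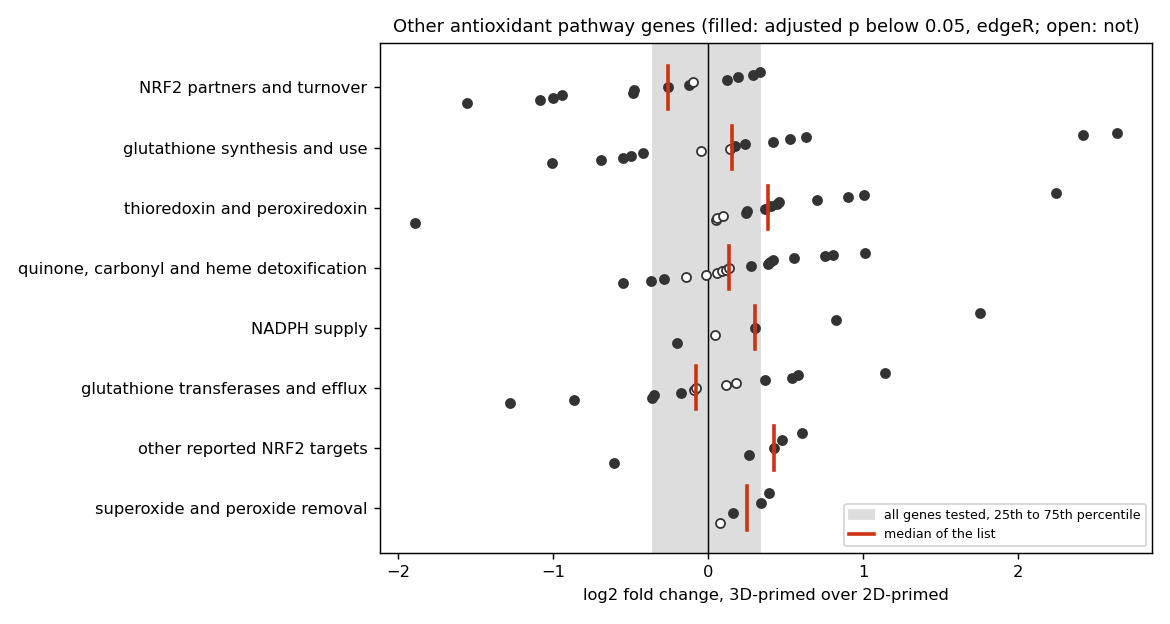
Log2 fold change, 3D-primed over 2D-primed, of the 85 tested genes of 8 lists, filled where edgeR's adjusted p was below 0.05, with the median of each list in red and the middle range of all genes tested in grey. The medians run from -0.26 for NRF2 partners and turnover to 0.43 for other reported targets.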

How the data were processed

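Polyadenylated RNA of HepG2 cells was sequenced as 8 libraries in read pairs. The authors quantified the reads with Salmon, which the submitters' processing notes name, on the Ensembl human cDNA set of GRCh38, and deposited estimated counts per gene, summed over transcripts with tximport, as whole numbers not scaled to a common depth. Whether tximport corrected the counts for transcript length is not given in the sources used here. One file per library held one column, and its group was taken from the title of the sample. Of the 38032 identifiers, 92.0% matched a symbol of GENCODE version 44, and these carried 97.5% of the counts. SOD2 alone of the listed genes found no match.

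A gene was kept where 2 or more libraries held 10 counts or more, as in the methods of the study. Counts were scaled by TMM, and given as TMM-scaled CPM, in edgeR 4.0.16 (R 4.3.3) and tested with glmQLFit and glmQLFTest over all genes, with Benjamini-Hochberg adjusted p below 0.05 as the call. Standard errors came from dividing each absolute log2 change by the root of its F value, and 95% intervals used the degrees of freedom of the fit. Ratios within a library were compared with a two-sided exact permutation test. Motifs were searched on both strands in RefSeq windows from 250 bases before to 50 after a start (GRCh38.p14) and, added after these were seen, in the 1000 bases upstream of the canonical start. The pipeline was tested on simulated data in which 200 genes were changed. There edgeR recovered 60.9% of the genes changed by 0.5 on the log2 scale and 81.5% of those changed by 1. False calls made up 4.08% of its calls and 13.0% of those of DESeq2. Far fewer genes were changed than were called in the real data, so scaling under so broad a change was not tested. Alternatives were DESeq2 1.42.0, limma-voom (limma 3.58.1), median-of-ratios, total-count and upper-quartile scaling, 3 filters on low counts, leaving out each library, and the replicate number as a block.

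The members and the gene lists were chosen with earlier results of these data known. The genes named are the 10 members, PRDX1, and the 3 tested genes of each of 8 wider lists with the smallest p, and any other is said to be chosen after its values were seen. Totals of 21599630 to 27844077 counts per library set the precision, and each member had at least 541 counts in every library. Figures were drawn in Python 3.11.15 with matplotlib 3.10.9.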

Additional observations from a re-analysis of the deposited data

Results flagged for a closer look

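In the 3D-primed group, the log2 ratio of SRXN1 to PRDX1 in replicate 3 was -2.23, far from the -2.46 to -2.43 of the other 3D-primed libraries. The gap to the nearest of them made up 0.879 of the range of the group, which is above Dixon's 95% critical value for 4 samples. PRDX1 stood at 485 CPM in this library and at 540 to 569 CPM in the other 3D-primed libraries, while SRXN1 was level with them. It was the only far library among 30 groups of 4 values examined, and chance marks about 1 group in 20.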

How the results depend on the processing

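GCLC, GCLM, SRXN1, NQO1, HMOX1, OSGIN1 and KEAP1 kept their direction and stayed past the threshold in all 17 alternatives. NFE2L2 missed it with upper-quartile scaling (-0.11 on the log2 scale). TXN passed it with total counts (0.13), with upper-quartile scaling (0.15) and without 3D-primed replicate 3, and ran from 0.073 to 0.13 with each library left out. TXNRD1 missed it with total counts (-0.11), with upper-quartile scaling (-0.088), with the replicate number as a block (-0.14) and without 2D-primed replicate 1 or 3, and ran from -0.17 to -0.12 with each library left out. The cause was not tested. With upper-quartile scaling 4 of the 10 genes were called higher and 4 lower, in place of 3 and 6. In that setting 65.1% of all genes tested were called, and 56.2% of these calls were higher, against 50.6% with TMM. The median log2 fold change of all genes tested lay 0.051 above that with TMM, and 0.028 above it with total counts. DESeq2 called the same 3 and 6, at a background of 60.3% of all genes tested. Over all alternatives the genes called ran from 8357 to 9070. The same replicate numbers showed little shared deviation (correlations across genes of -0.15 to 0.21). This does not exclude that libraries of the same number were handled together, which the labels do not say. Apart from that of TXNRD1, the block changed no call of the 10 genes. With each library left out, the log2 difference in GCLM/GCLC stayed between 0.95 and 1.01, given as a value with no test. Each of the 10 genes had at least 541 counts in a library.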

Other observations

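Among the 2D-primed libraries, GCLC, GCLM, TXNRD1 and SRXN1 had the same libraries low, with replicate 4 lowest and replicate 2 next in each gene. Replicate 4 held 151 CPM of GCLC, 22.8 CPM of GCLM, 203 CPM of TXNRD1 and 73.9 CPM of SRXN1. Among the 3D-primed libraries, replicate 2 was lowest in GCLC, GCLM and SRXN1 and next to lowest in TXNRD1, while the order of the others differed between the genes. This was noticed in the values and was not tested.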
